A study of Mus musculus with 10 samples.

Results

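Col1a1, Col1a2 and Col3a1 are the genes of the fibrillar collagens that make up most of the collagen of the heart. They were followed here in bulk RNA sequencing of heart tissue from 10 mice at 6 weeks of age. By the study's methods, hearts were sliced transversely and a matching region was taken from every mouse. The 3 genes were picked from 24537 genes in the count table because the measured count of Col1a1 was lower in one genotype, and Col1a2 and Col3a1 were added as collagens made by the same fibroblasts. The genotype difference of these 3 genes is therefore given as a description, with no test. The 5 iSOD2 mice (Rosa26-rtTA2+/-;TRE-SOD2-shRNA+/-) carried a short hairpin RNA against Sod2 behind a tetracycline response element placed at the Col1a1 locus, together with a tetracycline transactivator driven by the broadly active Rosa26 promoter. The 5 controls (Rosa26-rtTA2+/-;TRE-SOD2-shRNA-/-) were littermates with the same transactivator and no hairpin. All 10 mice came from C57BL/6J dams fed doxycycline chow from conception to birth, so both genotypes had been exposed to doxycycline in utero and to none after birth. By the sample labels, 3 controls and 2 iSOD2 mice were male. Litter B supplied 3 mice of either genotype and litter A the remaining 2 of either. Every iSOD2 mouse carried the hairpin cassette at the Col1a1 locus and had also gone through the embryonic knockdown, so in these data the effects of the cassette and of the knockdown on Col1a1 cannot be told apart. Sod2 itself took 0.0469% to 0.0538% of the counts in controls and 0.0494% to 0.0540% in iSOD2 hearts, ranges that overlap at this age.

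Fibrillar collagens are secreted as chains that wind into a long triple helix, are trimmed at both ends outside the cell, line up into fibrils and are cross-linked. Type I collagen joins a pair of α1(I) chains, from Col1a1, with a single α2(I) chain, from Col1a2, and gives the heart wall its stiffness. Type III collagen is built from the product of Col3a1 alone and forms thinner, more compliant fibrils together with type I. In the heart these genes are transcribed mainly by fibroblasts. The sequence that the 3 genes share is the coding repeat for the helix, in which glycine opens each triplet of amino acids. One exon of each gene, the first of 54 bases that lies wholly within the repeat, is printed to show this, with the glycine codon that opens each triplet in capitals. The sequences are of the GENCODE transcripts on the GRCm38 assembly (mm10), all on the plus strand.
Col1a1, exon 8, chr11:94939904-94939957: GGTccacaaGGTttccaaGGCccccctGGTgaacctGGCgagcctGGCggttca
Col1a2, exon 8, chr6:4515481-4515534: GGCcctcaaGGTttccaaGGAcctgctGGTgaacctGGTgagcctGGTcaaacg
Col3a1, exon 6, chr1:45325360-45325413: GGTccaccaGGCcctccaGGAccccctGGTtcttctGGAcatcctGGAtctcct

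The exons printed for Col1a1 and Col1a2 were identical at 42 of 54 bases (77.8%). The Col3a1 exon matched that of Col1a1 at 35 bases (64.8%) and that of Col1a2 at 31 bases (57.4%). Across the whole repeat, Col1a1 ran through 338 triplets without a break, Col1a2 through 339 and Col3a1 through 344. The exons that lay wholly within the repeat numbered 41 in Col1a1 and 42 in each of the other genes, and the length of every one of them was a multiple of 9 bases, the length of 1 triplet. Exons of 54 bases were the commonest kind, at 21, 23 and 24. Proline, the amino acid whose hydroxylated form stabilizes the helix, was encoded by 23.0% of the codons of the Col1a1 repeat, 19.1% of those of Col1a2 and 23.5% of those of Col3a1.

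Col3a1 was the most abundant of the 3 transcripts per length of exon. In RPKM (counts scaled to the exon length in kilobases and to the size of the library), Col3a1 (NM_009930, chromosome 1, 45311538 to 45349706 in mm10) had a level of 121 ± 20.6 (SD, n = 10), 386th of the 24537 genes. Col1a2 (NM_007743, chromosome 6, 4505618 to 4541543) had 40.8 ± 5.53 and ranked 1169th. Col1a1 (NM_007742, chromosome 11, 94936224 to 94953042) had 21.1 ± 4.94 and ranked 2335th. This order held in every one of the 10 hearts. Their annotated exon lengths were 5511, 5168 and 5877 bp, and no other gene in the table overlapped any of them. Libraries held 16448090.5 to 24263085.5 counts over all genes, of which Col1a1 took 0.00843% to 0.0186%, Col1a2 0.0173% to 0.0257% and Col3a1 0.0506% to 0.0811%. Each library thus held at least 2045 counts of each gene, and the spread between mice set the precision. All 3 genes passed the minimum of 10 counts that kept 17746 genes in the fits.

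Col1a1 was lower in iSOD2 hearts, and its partner chain Col1a2 stood less far below the controls. Counts were normalized with DESeq2 size factors, and the normalized count of Col1a1 was 2857, 2886, 3826, 2754 and 2978 in controls 1, 2, 3, 4 and 6. In iSOD2 mice 5, 7, 8, 9 and 10 it was 1727, 2172, 2051, 2427 and 2110. The highest iSOD2 heart lay below the lowest control, so the genotypes did not overlap. The share of all genes that separated in this way was not counted, so nothing is read from the separation. The control mean was 3060 ± 435 and the iSOD2 mean 2097 ± 252 (SD, n = 5 mice each). The log2 fold change was -0.55 with a standard error of 0.10 and a 95% interval of -0.75 to -0.34, or 0.685-fold. A gene was called when its DESeq2 adjusted p was at most 0.05 and its log2 fold change exceeded 0.25 in size, and 2.96% of the 9489 genes with an adjusted p met both conditions between genotypes. Nothing is read from that share for Col1a1, which was chosen for this difference.

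Col1a2, which supplies the other chain of type I collagen, had normalized counts of 4289, 4243, 5302, 4692 and 4672 in controls 1, 2, 3, 4 and 6. In iSOD2 mice 5, 7, 8, 9 and 10 it had 3550, 3706, 3899, 4906 and 4476. The 3 lowest hearts were iSOD2 hearts, but iSOD2 9 and 10 lay within the range of the controls. The means were 4639 ± 425 and 4107 ± 568, a log2 fold change of -0.18 (SE 0.09, 95% interval -0.36 to 0.01).

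Col3a1, the type III chain, had 12204, 11925, 15620, 16081 and 16525 in controls 1, 2, 3, 4 and 6, and 11802, 10805, 13246, 15886 and 14442 in iSOD2 mice 5, 7, 8, 9 and 10. The genotypes overlapped over most of this range, and the 2 lowest controls were the 2 from litter A. The means were 14471 ± 2222 and 13236 ± 2028, a log2 fold change of -0.13 (SE 0.12, 95% interval -0.36 to 0.10).

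**Figure D1:**
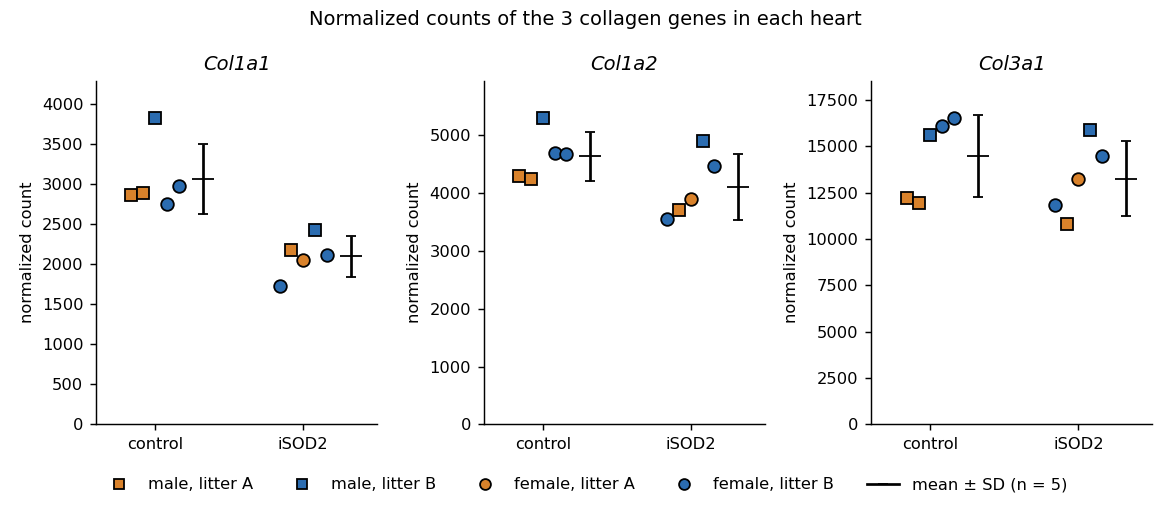
Normalized count (vertical axes, from 0) of Col1a1, Col1a2 and Col3a1 in each heart by genotype, with squares for males, circles for females, orange for litter A, blue for litter B and black bars for the mean ± SD of 5 mice. The 5 iSOD2 hearts lie between 1727 and 2427 for Col1a1, all below the controls, while the genotypes overlap for Col1a2 and Col3a1.

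Because every iSOD2 heart lay below every control for Col1a1, the sign of its difference in any subset of the hearts was fixed, and subsets show its size alone. The log2 fold change of Col1a1 was -0.47 in males, -0.55 in females, -0.44 in litter A and -0.61 in litter B. For Col1a2 the same 4 values were -0.10, -0.24, -0.16 and -0.18. Those of Col3a1 were 0.01 (SE 0.23), -0.31 (SE 0.11), -0.00 (SE 0.10) and -0.20 (SE 0.10). Both control females came from litter B while iSOD2 8, a female, came from litter A. The values by sex therefore mix litter with genotype. Whether the genotype difference itself depended on sex or litter was tested with interaction terms in DESeq2. The genotype-by-sex term was -0.07 for Col1a1, -0.14 for Col1a2 and -0.32 for Col3a1 (SE 0.19, 0.19 and 0.21), each with an adjusted p of 0.9999. The genotype-by-litter term was -0.17, -0.02 and -0.19 (SE 0.19, 0.16 and 0.16), each with an adjusted p of 0.99999. Across all genes DESeq2 called 0 of 17743 (0%) for the sex term, with 209 at an unadjusted p under 0.05, and edgeR also called 0, with 489 at that level. For the litter term DESeq2 called 1 of 17739 genes (0.00564%), which was Wdfy1, named after its value was seen.

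With sex and litter as covariates, the log2 fold changes were -0.49 for Col1a1, -0.15 for Col1a2 and -0.12 for Col3a1. Control 3, the male control of litter B, had the highest Col1a1 count of all, and leaving this heart out gave -0.45 for Col1a1. Leaving out any other single heart gave values down to -0.60, reached without iSOD2 9. Exon length moved with genotype over the whole table, and genes were split into 5 groups of about equal size by exon length. The longest group (4936 to 101359 bp) had a median log2 fold change of -0.08 and the shortest (53 to 1677 bp) a median of 0.11. All 3 collagen genes fell in the longest group. After this trend was removed, Col1a1 stood at -0.47, Col1a2 at -0.11 and Col3a1 at -0.06.

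**Figure D2:**
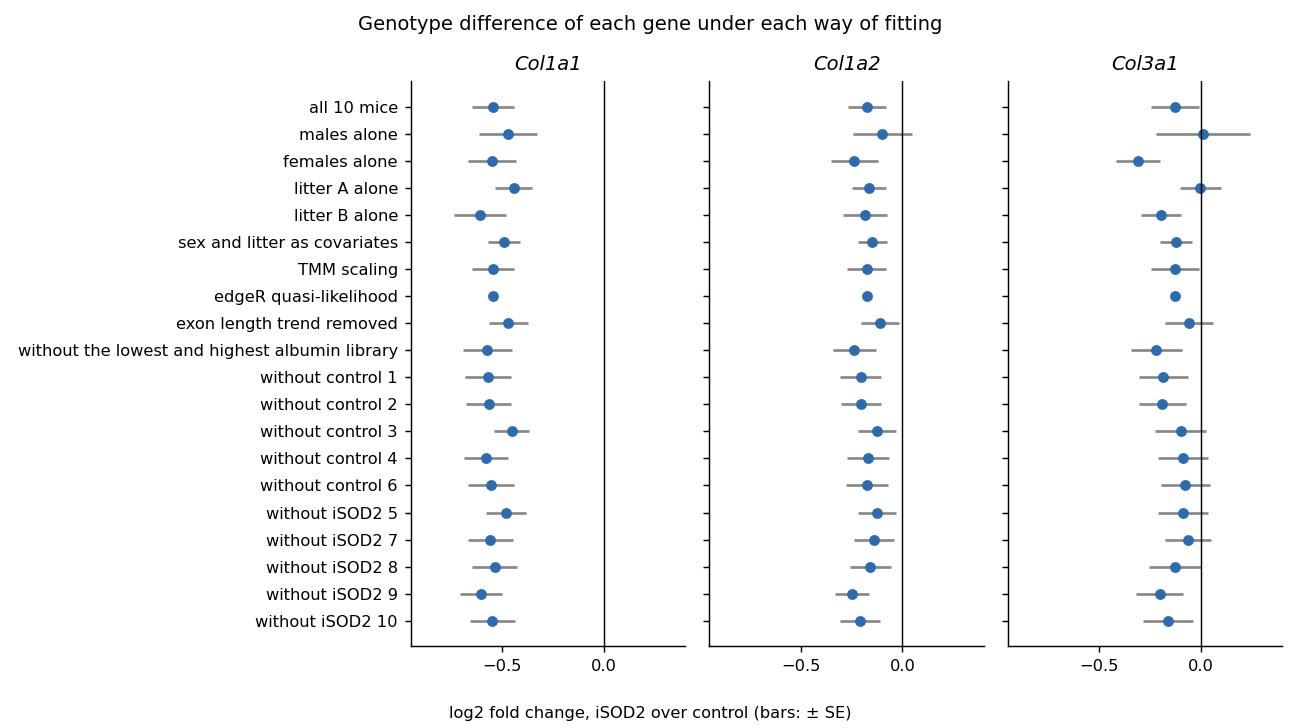
Log2 fold change of iSOD2 over control (horizontal axes) for Col1a1, Col1a2 and Col3a1 under each way of fitting (rows), with the standard error as a bar where the method gives one. Col1a1 stays between -0.61 and -0.44 in every row, and Col3a1 lies from -0.31 in females to 0.01 in males.

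The balance between the chains can be read within each heart as a ratio, which cancels library scaling. Per kilobase of exon, the ratio of Col1a1 to Col1a2 was 0.586, 0.598, 0.635, 0.516 and 0.561 in controls 1, 2, 3, 4 and 6. It was 0.428, 0.515, 0.463, 0.435 and 0.414 in iSOD2 mice 5, 7, 8, 9 and 10. Every iSOD2 heart was below every control, though iSOD2 7 and control 4 were only just apart. The means were 0.579 ± 0.0441 and 0.451 ± 0.0400 (SD, n = 5 each). The ratio of Col3a1 to Col1a1 was 4.35 to 6.23 in controls and 5.31 to 7.30 in iSOD2 hearts, with means of 5.09 ± 0.905 and 6.75 ± 0.8292. The ratio of Col3a1 to Col1a2 was alike in the 2 genotypes on average, at 2.92 ± 0.321 and 3.02 ± 0.173. As ratios of genes chosen for the genotype difference, these were not tested between genotypes, and nothing is read from their separation.

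Sex and litter were not used to choose the genes, so the ratios were tested against both by exact permutation within genotype. Both control females came from litter B and both litter A controls were male, so each sex test leaves litter uncontrolled and each litter test leaves sex uncontrolled. Females had a lower ratio of Col1a1 to Col1a2 than males, by 0.15 on the log2 scale (-0.15, exact two-sided permutation p = 0.04, 0.08 after Benjamini-Hochberg adjustment over 4 tests). They had a higher ratio of Col3a1 to Col1a1, by 0.34 (exact p = 0.02, adjusted 0.08). Between litters the differences were -0.13 and 0.26 (litter B minus litter A, each exact p = 0.10, adjusted 0.10). None of the 4 passed 0.05 after adjustment, and the smallest p this design allows is 0.01. Without control 3, 3 of the 4 passed, with adjusted p from 0.0333 to 0.0444, as did both sex differences without iSOD2 8 (adjusted p 0.0333) and, at exactly 0.05, without iSOD2 9. The ratio of Col3a1 to Col1a2, not among the 4 tests, was 3.03 to 3.32 in females and 2.64 to 3.04 in males.

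**Figure D3:**
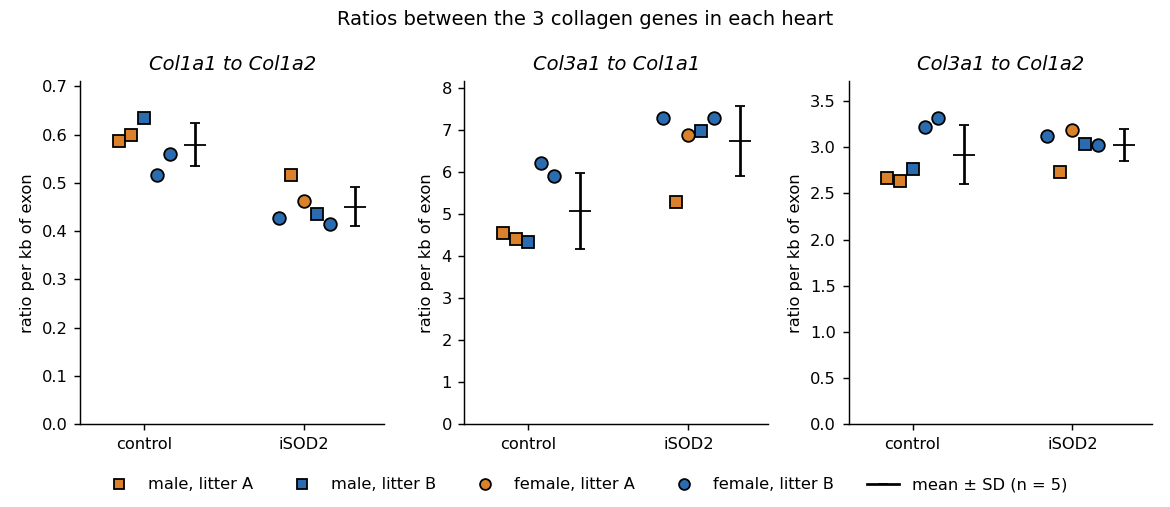
Ratios between the 3 genes per kilobase of exon (vertical axes, from 0) in each heart by genotype, with squares for males, circles for females, orange for litter A, blue for litter B and black bars for the mean ± SD of 5 mice. Col1a1 to Col1a2 is 0.516 to 0.635 in controls and 0.414 to 0.515 in iSOD2 hearts, and Col3a1 to Col1a1 is higher in the female than in the male controls.

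Single genes were then compared between females and males with genotype in the model, where DESeq2 called 79 of 16364 genes (0.483%). Col1a1 was 0.19 lower in females on the log2 scale (-0.19, SE 0.09) with an unadjusted p of 0.0367 and an adjusted p of 0.645. Col1a2 differed by -0.05 (SE 0.10, adjusted p 0.9997) and Col3a1 by 0.14 (SE 0.11, adjusted p 0.951). Sex and litter were unbalanced, since 4 of 5 females but 2 of 5 males came from litter B and both control females did. With litter also in the model the differences were -0.25 for Col1a1 (adjusted p 0.315), -0.14 for Col1a2 and 0.03 for Col3a1 (adjusted p 0.9998 each). None of the 3 passed the test for sex.

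Col3a1 was higher in litter B than in litter A. Its normalized counts in the 4 hearts of litter A were 10805, 11925, 12204 and 13246, and in the 6 hearts of litter B they were 11802, 14442, 15620, 15886, 16081 and 16525. The litters overlapped through 1 heart, iSOD2 5, a female of litter B. With genotype in the model, Col3a1 rose by 0.32 on the log2 scale (SE 0.08, DESeq2 adjusted p 0.00596), a 1.25-fold difference. In this comparison 3.5% of the 15670 genes tested were called, and 2.52% were called higher in litter B. The call was lost in edgeR (adjusted p 0.0678) and without control 1, control 2 or iSOD2 7 (adjusted p 0.0595, 0.0508 and 0.0615), all 3 of them from litter A. Without iSOD2 5 the difference was 0.38 (adjusted p 2.4e-07).

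Col1a2 stood 0.19 higher in litter B (SE 0.08), with an unadjusted p of 0.0169 and an adjusted p of 0.188 in DESeq2. Col1a1 was 0.07 higher (SE 0.10, adjusted p 0.865). With sex also in the model the differences were 0.31 for Col3a1 (adjusted p 0.0170), 0.24 for Col1a2 (adjusted p 0.0548) and 0.16 for Col1a1 (adjusted p 0.468). Thus 1 of the 3 collagens passed the test between litters, and the size of the difference followed the order Col3a1, Col1a2, Col1a1. The ratio test above did not separate Col3a1 from Col1a1 between litters (exact permutation, adjusted p 0.10). Other values moved with litter too. The summed normalized count of 9 markers of activated fibroblasts was 5397 to 6723 in litter A and 8362 to 11839 in litter B. Most of this came through Acta2, which encodes smooth muscle α-actin (0.96, adjusted p 4.5e-07), and Meox1 was also called higher (0.47, adjusted p 0.0013). Sums of smooth muscle and pericyte markers overlapped between litters (15364 to 18304 and 16052 to 19616). Among 10 fibroblast markers other than collagens the sums overlapped (14408 to 15421 and 13983 to 15562). Single genes among them went both ways, with Pi16 (0.52), Mfap5 (0.56) and Cd248 (0.31) called higher in litter B and Fbln1 (-0.35) called lower. The 5 ventricular cardiomyocyte markers summed lower in every heart of litter B than in litter A (mean log2 difference -0.18), including Myh6 (-0.25, adjusted p 0.00094) and Myl2 (-0.18, adjusted p 0.0071), both short of the fold needed for a call. Atrial markers summed to 1084 to 7655 in litter A and 517 to 2748 in litter B, with Nppa called lower in litter B (-1.53, adjusted p 0.0493). Nppa made up most of these sums. Myl7, Myl4 and Sln, of low count, went the other way (1.86, 0.17 and 2.74) and none was called. The part of these markers in the litter difference of Col3a1 was not tested.

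After the genotype mean was subtracted, the 3 genes did not rise and fall among hearts to the same degree. Over 10 hearts, on the log2 scale, Pearson's r was 0.84 (Spearman's rho 0.81) between Col1a2 and Col3a1. It was 0.78 (rho 0.59) between Col1a1 and Col1a2 and 0.42 (rho 0.20) between Col1a1 and Col3a1. Without the 2 hearts farthest from the median, control 3 and iSOD2 9, r stayed at 0.82 for Col1a2 with Col3a1. It came to 0.43 for Col1a1 with Col1a2 and 0.07 for Col1a1 with Col3a1, so both relations of Col1a1 were weaker without these hearts. For Col1a1, iSOD2 5 lay about as far from the median on the low side, and r without it was not computed. Control 3 and iSOD2 9 were the only male of litter B in each genotype, and each had the highest Col1a1 count of its genotype. Within the 6 hearts of litter B the 3 correlations were 0.81, 0.91 and 0.61, and litter A held too few hearts. These correlations are descriptions over hearts that share 2 litters and 1 set of size factors.

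**Figure D4:**
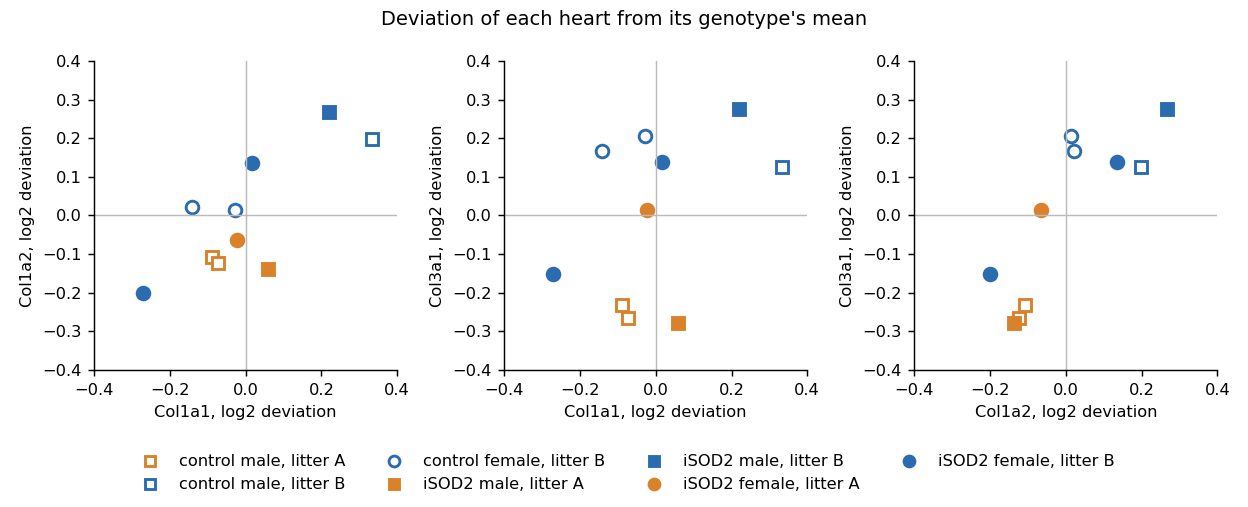
Log2 deviation of each heart from the mean of its genotype, for Col1a2 against Col1a1, Col3a1 against Col1a1 and Col3a1 against Col1a2, with open symbols for controls, filled symbols for iSOD2, squares for males, circles for females, orange for litter A and blue for litter B. The 2 males of litter B lie far to the right for Col1a1, and Col1a2 with Col3a1 lie closest to a line (r = 0.84, n = 10).

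Neither partner was among the genes most like Col1a1 in this respect. Among the 12149 genes whose mean normalized count reached 50, Col1a2 ranked 129th in Pearson's r with Col1a1 and Col3a1 ranked 1915th. The 10 highest were Itgam (r = 0.95), Fem1b, Irf5, Parg, Foxn2, Slc48a1, Gm10578, Abca6, Sfmbt1 and Rbm15b (0.91). Spearman's rho for these 10 was 0.76 to 0.95, and r without control 3 and iSOD2 9 was 0.73 to 0.97. Itgam encodes an integrin of myeloid cells and Irf5 a transcription factor of the interferon response. Their log2 fold changes between genotypes ran from -0.18 (Itgam and Sfmbt1) to 0.06, and 8 of the 10 were below 0. Irf5 and Gm10578 had no adjusted p and 0 of the other 8 were called by DESeq2, with 1 (Sfmbt1, 0.0245) at an unadjusted p under 0.05, and a count this small cannot be set apart from the 2.96% called over all genes.

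The other fibrillar collagens were examined next, since type V collagen chains sit inside type I fibrils and set their diameter. By DESeq2, 1.7% of all tested genes were called lower in iSOD2 hearts and 1.26% were called higher. Of 8 other fibrillar collagen genes, 3 had an adjusted p, and 2 of these were called lower. Col5a1, the α1(V) chain, had normalized counts of 2575 to 3478 in controls and 1970 to 2579 in iSOD2 hearts, ranges that touched (log2 fold change -0.40, SE 0.09, adjusted p 0.0016). Col5a3, the α3(V) chain, had 864 to 1388 and 603 to 1033 (-0.56, SE 0.15, adjusted p 0.0112). Col5a2, the α2(V) chain, stood at -0.16 (SE 0.10, adjusted p 0.388). Of the other 5, which had low counts and no adjusted p, only Col27a1 had a mean count above 50, at 147 in controls and 151 in iSOD2 hearts.

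The machinery that folds, trims and cross-links collagen gave 0 calls by DESeq2 among its tested genes, which with lists of this size is near the 2.96% called over all genes. Of 16 tested genes for procollagen folding, modification and secretion, 7 had lower and 9 higher values, with a median log2 fold change of 0.01. The values farthest from 0 were those of Fkbp10, a prolyl isomerase for collagen (-0.13, SE 0.13), Crtap, a part of the prolyl 3-hydroxylation complex (0.13, SE 0.09), and Colgalt2, a collagen galactosyltransferase (0.11, SE 0.08). Serpinh1, the collagen chaperone HSP47, was at 0.00 (SE 0.08, adjusted p 0.992). Of 8 genes for propeptide removal and cross-linking, 4 had lower and 4 higher values, with a median of -0.00. The lower ones were led by Adamts2, a procollagen N-proteinase, at -0.22 (adjusted p 0.167), and Loxl2, a cross-linking lysyl oxidase, at -0.21. Pcolce2 had the highest value of the 8, 0.17 (adjusted p 0.225). Lox itself (98.1 ± 15.1 and 77.2 ± 25.8 normalized counts, -0.35) and Adamts14 (-0.35) were too scarce to receive an adjusted p.

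Among 14 matrix proteins bound to collagen fibrils, 1 was called lower, where 1.7% of all tested genes were. Counts of 1 or 2 in lists of 7 to 27 genes cannot be set apart from that share. The called gene was Tnxb, encoding tenascin-X, with normalized counts of 3494 to 5002 in controls and 2910 to 3736 in iSOD2 hearts (-0.35, SE 0.10, adjusted p 0.0186). Lum, encoding the fibril-spacing proteoglycan lumican, stood at 0.20 and Fn1, encoding fibronectin, at -0.24, neither called. Tnc, encoding tenascin-C, had no adjusted p (-0.34, SE 0.23). Of 27 genes of TGF-β signalling and collagen transcription, 2 were called lower. Both encode latent TGF-β binding proteins, Ltbp3 at -0.31 (SE 0.08, adjusted p 0.0042) and Ltbp4 at -0.29 (SE 0.08, adjusted p 0.0096). Ctgf, which encodes a matricellular target of TGF-β, had the highest value of the 27, 0.34 (SE 0.12), with an adjusted p of 0.0571, and Smad6, an inhibitor of the pathway, was at 0.31 (SE 0.12, adjusted p 0.105). Tgfb1, the ligand, stood at -0.30 (adjusted p 0.134), and Ltbp2, a further latent TGF-β binding protein of low count, at -0.44 (SE 0.22) with no adjusted p. Of 7 collagen receptors and breakdown genes, Mrc2, the receptor that takes up collagen fragments, was called lower at -0.27 (SE 0.08, adjusted p 0.0156). Itga11, a collagen-binding integrin of fibroblasts, and Lair1, a collagen receptor of immune cells, had values of -0.33 (SE 0.15) and -0.16 (SE 0.16) with no adjusted p.

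Over the 6 lists, 6 of 75 tested genes (8.0%) were called lower and 0 higher, against 1.7% and 1.26% of all tested genes. The lists were chosen with earlier results of these data known, and their tested genes had longer exons (median 3789 against 3210 bp). Nothing about the pathway is therefore read from the 8.0%. Values were lower for 43 of the 75 (57.3%), against 52.7% of all 9489 genes, and their median log2 fold change was -0.03 against -0.01 for all genes. In edgeR, 0 of the 102 fitted list genes reached an adjusted p of 0.05, 17 had an unadjusted p under 0.05, and the adjusted p of the 6 called genes ran from 0.0747 to 0.128. Only Col5a1 and Ltbp3 kept their call without control 3, and only Col5a1 after the exon length trend was removed. Among the lost calls, Col5a3 stood at -0.51 and Ltbp4 at -0.28 without control 3 (adjusted p 0.0810 and 0.0592), and they stood at -0.48 and -0.22 after the length correction (adjusted p 0.0586 and 0.128). Leaving out the libraries with the lowest and the highest albumin count, an exclusion chosen after seeing the data, left Col5a1 and Mrc2 called. Tests between litters called 7 of 99 list genes (7.07%), all higher in litter B, where 3.5% of all genes were called and 2.52% were called higher in litter B. They included Sparc (0.60), a matricellular protein that binds collagen, Tnc (0.56), and Col5a2 (0.26), which lies next to Col3a1 in the genome at a distance of 24.6 kb.

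**Figure D5:**
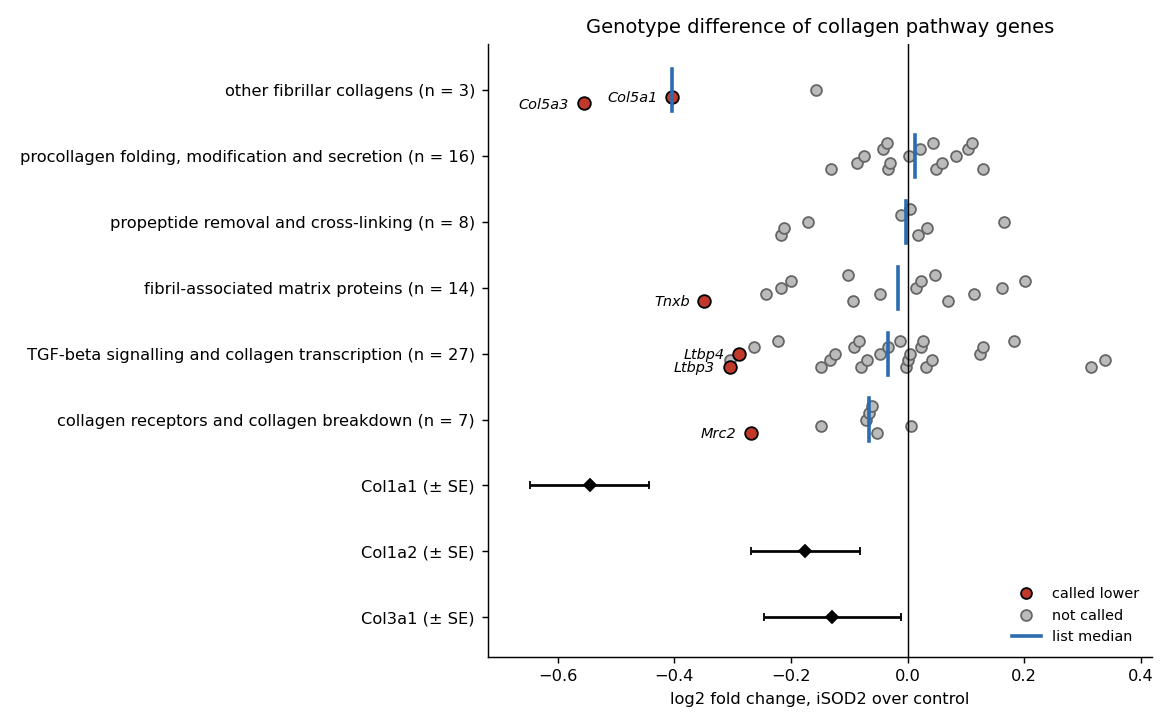
Log2 fold change of iSOD2 over control (horizontal axis) for the 75 tested genes of 6 collagen pathway lists (1 point per gene, rows are lists, blue lines are list medians, red points are genes called lower) and, below, for Col1a1, Col1a2 and Col3a1 with standard errors. The 6 called genes lie between -0.56 and -0.27, and the folding list is centred near 0.

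Genes around the Col1a1 locus, where the hairpin cassette sits, were listed for comparison. Of 22 genes within 0.5 Mb of Col1a1, 14 had an adjusted p and 0 were called by DESeq2, a count that cannot be set apart from the 2.96% called over all genes. The log2 fold changes of these 14 ran from -0.32 to 0.12 with a median of -0.05. Those of the genes without an adjusted p ran from -0.58 (Mycbpap, SE 0.39) to 0.23 (Chad, SE 0.29). The nearest tested gene on the 3′ side, Sgca (α-sarcoglycan), lay 9.74 kb away and stood at 0.02 (SE 0.09, adjusted p 0.929). Xylt2, the nearest tested gene on the other side at 258.7 kb, was at -0.05. The lowest value of the 14 was that of Acsf2 (-0.32, SE 0.11, adjusted p 0.0529), 334.4 kb away. Beside Col1a2, Casd1 stood at 0.05 and Bet1 at 0.13, and Gulp1, before Col3a1, stood at 0.01 with no adjusted p.

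Markers of cell types were summed in each heart. In bulk tissue fewer cells of a type and less RNA per cell cannot be told apart, and sums do not change this. Single abundant genes also weighed heavily in the sums. In controls Rgs5 averaged 10862.5 of 16572 for smooth muscle and pericytes, Acta2 6501 of 8769 for activated fibroblasts and Dcn 6166 of 14686 for fibroblasts. The 10 fibroblast markers other than collagens summed to 13983 to 15238 normalized counts in controls and 14570 to 15562 in iSOD2 hearts. Of the 9 with an adjusted p, 0 were called between genotypes, which cannot be set apart from the 2.96% called over all genes. Activated fibroblast markers overlapped as well (5454 to 11513 and 5397 to 11839). Smooth muscle and pericyte markers summed to 15364 to 18660 and 17196 to 19616. Of 5 with an adjusted p, Tagln (0.40, adjusted p 0.0036) and Myh11 (0.28, adjusted p 0.0492) were called higher in iSOD2 hearts. Over all tested genes, 1.26% were called higher. Endothelial sums were 15797 to 19187 and 16072 to 18313, and macrophage sums 4959 to 5837 and 4445 to 5661. Of 8 genes of bone, cartilage and tendon, tissues rich in type I collagen, 5 (Bglap, Ibsp, Sp7, Tnmd and Col2a1) had a mean count under 1. The 6 hepatocyte genes varied widely, summing to 211 to 9143 in controls and 4431 to 19032 in iSOD2 hearts. All 6 had higher values in iSOD2 hearts (median log2 fold change 1.17), and Apoa2 alone was called (0.85, adjusted p 0.0025). Nothing about the make-up of the tissue is read from the calls among these short lists. The 4 atrial cardiomyocyte markers summed to 517 to 2123 and 634 to 7655. Nppa, the only one of them tested, was not called (1.37, SE 0.67, adjusted p 0.226). DESeq2 gave no p to Myl7, Myl4 and Sln. Their highest counts in iSOD2 hearts were 372, 428 and 68.3, against 5.43, 51.9 and 0.988 in controls. Without the 2 libraries of lowest and highest albumin count, Col1a1 stood at -0.57, Col1a2 at -0.24 and Col3a1 at -0.22. The part of these markers in the Col1a1 difference was otherwise not tested.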

How the data were processed

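Total RNA from 10 hearts was depleted of ribosomal RNA and made into stranded libraries. The authors aligned reads to mm10 with STAR and counted them over exons with HOMER, with no strand option stated. They used Trim Galore for experiments that held adaptor sequences, without saying whether this was such an experiment. The deposited values are raw estimated counts in steps of 0.5, not normalized. Groups, sex and litter came from the sample labels. Counts were rounded, genes with under 10 counts in total were dropped, and fits used DESeq2 1.42.0 (Wald test) in R 4.3.3 with Benjamini-Hochberg adjustment. DESeq2 gives no adjusted p to genes of low mean count, and it gave no p at all to some genes, such as Myl7. Both kinds stayed untested. edgeR 4.0.16, TMM scaling, other count filters, covariates, exon length correction and leaving out single mice were alternatives. The exon length per transcript is the authors' deposited value and gave RPKM. Named genes were the 3 collagens, all called genes and the 3 with the largest fold change at a mean count of at least 50 in each list, chromosomal neighbours and the 10 genes most correlated with Col1a1. A few further genes (Wdfy1, Serpinh1, Loxl2, Pcolce2, Lum, Tgfb1, single markers and list genes called between litters) were named after their values were seen. The collagens and the lists were chosen with earlier results of these data known.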

Additional observations from a re-analysis of the deposited data

Results flagged for a closer look

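Single hearts that stood apart from the other 4 of their genotype were looked for in 24 sets of 5 values, covering the 3 collagens, their ratios and the 6 called list genes, and 4 were found where chance gives about 1 in 20. Control 3 stood apart for Col1a1, with a normalized count of 3826 against 2754 to 2978 in the other controls, and for Col5a1, with 3478 against 2575 to 2836. iSOD2 9 stood apart for Col5a1, with 2579 against 1970 to 2114 in the other iSOD2 hearts. Both are males of litter B. iSOD2 7, a male of litter A, had a ratio of Col3a1 to Col1a1 of 5.31 against 6.89 to 7.30 in the other iSOD2 hearts.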

How the results depend on the processing

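The sign of the Col1a1 genotype difference was fixed by the lack of overlap between genotypes, and its size ran from -0.61 to -0.44. Col3a1 was above 0 in males alone (0.01) and at -0.00 in litter A alone. Counts of called genes depended on the tool. Between genotypes DESeq2 called 281 genes and edgeR 0 (2723 at an unadjusted p under 0.05), 133 were called after the exon length trend was removed and 157 without the 2 albumin libraries. Leaving out single mice gave 166 to 495. Between sexes 79 were called, 29 by edgeR and 41 to 147 without single mice. Between litters 548 were called, 365 by edgeR and 300 to 705 without single mice. Of the list genes 6 were called, 0 by edgeR, 1 after the length correction, 2 without the albumin libraries and 2 to 8 without single mice. The Col3a1 litter difference was 0.32 in edgeR, no longer called, and 0.28 to 0.40 without single mice. Without single mice the Col1a1 litter difference was -0.01 to 0.13 and the Col1a2 sex difference -0.10 to 0.053, neither called. The ratio of Col1a1 to Col1a2 then differed by -0.21 to -0.0869 between sexes and -0.17 to -0.0892 between litters, and that of Col3a1 to Col1a1 by 0.24 to 0.44 and 0.17 to 0.36. The causes were not tested. With sex and litter as covariates, 222 genes were called between genotypes.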
